A study of Mus musculus with 8 samples.

Results

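The miR-183/miR-96/miR-182 cluster is a set of 3 miRNAs cut from neighbouring hairpins. Its members are the 3 assays of those names among the 381 on a quantitative PCR card, a rule that uses no measured value, although earlier results of these data were known when it was set. To follow the cluster through toxic injury of the liver, it was read in whole-liver total RNA of female C57B6 mice that were 4 weeks of age when treatment began. Treated mice received carbon tetrachloride (CCl4), a hepatotoxin, diluted in corn oil and injected into the peritoneum for 1, 4 or 8 weeks, and the controls are labelled as untreated, with no mention of corn oil. The labels give the dose as 1 mg/kg, whereas the published protocol gives it in ml/kg. Each of the 4 groups had 2 cards and the study 8. No label states that replicates are different mice, so the p-values measure the spread between these cards, which may be technical. The series description lists 4, 3 and 2 mice at 1, 4 and 8 weeks, which matches the labels only at 8 weeks. Whole liver holds hepatocytes, biliary cells, stellate cells, endothelium and blood cells, so fewer cells of a type and less RNA per cell cannot be told apart.

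Animal miRNAs find their target messages mainly through the seed, bases 2 to 8 counted from the 5′ end, and lower the output of the messages they pair with. The miR-183/miR-96/miR-182 cluster is known above all from sensory organs, where photoreceptors and hair cells use it at high levels, and its members are also described in epithelial tissues and tumours. A polycistron is a transcript from which several miRNAs are cut, and the mature products can nevertheless differ in amount, since processing and decay act on each hairpin and strand.

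The members are shown first as sequences because they are close relatives that separate assays have to tell apart. The deposited table names no strand for these assays, and the 5p strand is printed for each, from RefSeq with GRCm38.p6, in the 5′ to 3′ direction with the seed in capitals.
miR-183-5p: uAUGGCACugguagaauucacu
miR-96-5p: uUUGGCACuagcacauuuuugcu
miR-182-5p: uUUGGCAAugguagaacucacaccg
All 3 carried the letters GGCA from position 4, and no seed was common to any pair of members. Aligned from the 5′ end, with positions counted from 1 there, miR-183 and miR-182 were identical at 18 of 22 positions and differed by A2U, C8A, U17C and U22A, of which A2U and C8A lie in the seed. miR-96 and miR-182 were identical at 12 of 23 positions but differed in the seed only by C8A. miR-183 and miR-96 were identical at 13 of 22 positions and differed in the seed only by A2U. Over bases 2 to 7 miR-96 and miR-182 had the same letters, UUGGCA, which 3 of 1679 mature mouse miRNAs in the table carried (0.179%), the third being miR-1271-5p, which has no assay on the card. The full seed of miR-183, AUGGCAC, occurred in miR-183-5p alone.

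The hairpins are printed to show where each mature strand, in capitals, sits in its precursor. All 3 lie on the minus strand of chromosome 6 in GRCm38.p6, miR-183 at chr6:30169668-30169737, miR-96 at chr6:30169446-30169551 and miR-182 at chr6:30165918-30165992.
miR-183 hairpin: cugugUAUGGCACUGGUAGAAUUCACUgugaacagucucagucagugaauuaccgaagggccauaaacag
miR-96 hairpin: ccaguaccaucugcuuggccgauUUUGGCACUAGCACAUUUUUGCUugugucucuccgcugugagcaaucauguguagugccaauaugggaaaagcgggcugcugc
miR-182 hairpin: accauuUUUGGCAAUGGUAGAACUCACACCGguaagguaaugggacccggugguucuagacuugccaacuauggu
In the direction of transcription the order is miR-183, miR-96, miR-182. Only 116 bases separate the first pair of hairpins, and 3453 bases separate miR-96 from miR-182, within a span of 3820 bases. The long noncoding RNA gene Mirc35hg overlaps this span in the annotation, and the nearest protein-coding genes are Nrf1 on the lower-coordinate side and Ube2h on the other. The annotation used gives gene extents only, so exons and introns are not stated.

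The members spanned a wide range of detection. A card reports a threshold cycle (Ct), the PCR cycle at which an assay's signal crosses a set level, and a lower Ct stands for more template. miR-182 was determined on all 8 cards, with raw Ct values of 29.66 and 29.83 in untreated livers, then 30.02 and 29.07 (1 week), 30.41 and 31.94 (4 weeks), and 29.42 and 30.87 (8 weeks). Its mean Ct was 30.2, and 97 of the 168 assays determined on every card had a lower mean. miR-183 was also determined on all 8 cards but later, at 33.34 and 34.90 in untreated livers, then 35 and 35.98 (1 week), 32.99 and 33.81 (4 weeks), and 32.01 and 33.40 (8 weeks). Its mean Ct of 33.9 lay near the end of the measured range, since 162 of the 168 assays had a lower mean, and the Ct was below 35 on 6 of 8 cards. miR-96 was determined on 3 of 8 cards, at 35.65 and 35.96 in untreated livers and 34.47 on replicate 1 at 4 weeks. Only the last of these was below 35. Both cards at 1 week, replicate 2 at 4 weeks and both cards at 8 weeks gave no Ct for miR-96. Amplification efficiency differs between assays, so these Ct values do not rank the 3 members by abundance.

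**Figure D1:**
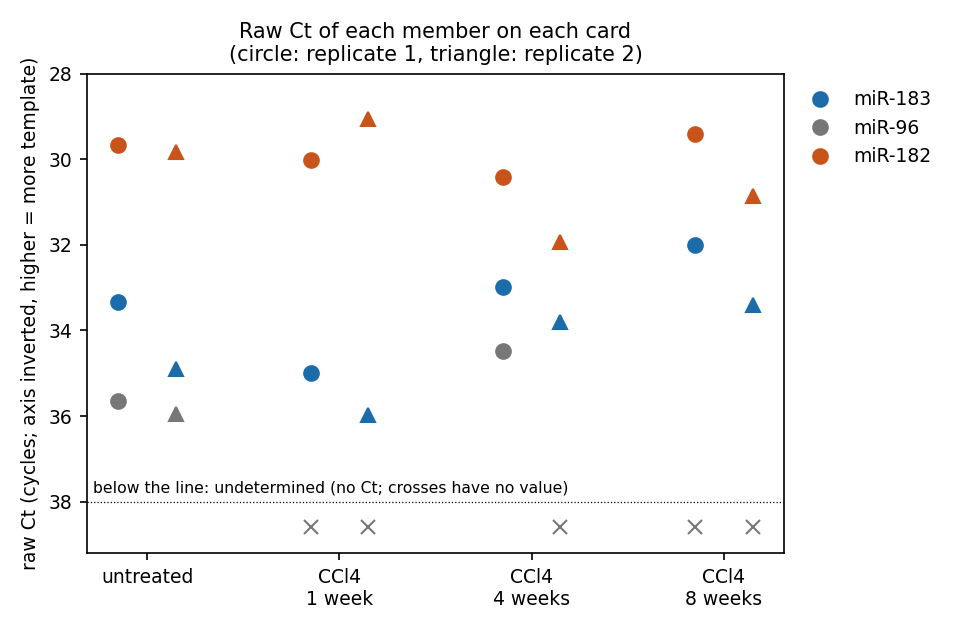
Raw Ct in cycles (vertical axis, inverted) of miR-183, miR-96 and miR-182 on each of the 8 cards by group, circles for replicate 1 and triangles for replicate 2; crosses mark cards with no Ct and carry no value. miR-182 lies between 29.07 and 31.94 on every card, miR-183 between 32.01 and 35.98, and miR-96 has a Ct on 3 cards.

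The 8 cards differed in yield. They gave a Ct for 193 to 235 assays, their mean Ct over the 149 assays below 35 on every card ran from 27.5 to 29.8, and 4 weeks replicate 2 had both the fewest assays and the highest mean Ct. Members were therefore compared as the card mean Ct minus the assay's Ct, a centred value on the log2 scale on which higher means more template. Of the 381 assays, 166 had a Ct on every card with a mean below 35 and were tested together with limma, among them miR-183 and miR-182. The tissue label was checked on miR-122, the defining hepatocyte miRNA, which was determined on all cards at a mean Ct of 22.8.

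Untreated livers had centred log2 values of -4.99 and -6.91 for miR-183. With CCl4 the values were -6.23 and -7.38 (1 week), -4.74 and -4.04 (4 weeks), and -4.53 and -4.52 (8 weeks). The 1 week cards overlapped the untreated ones, while all 4 cards at 4 and 8 weeks lay above both untreated and both 1 week cards. Group means were -5.95 ± 1.35 (SD, n = 2) in untreated livers, -6.81 ± 0.81 (SD, n = 2) at 1 week, -4.39 ± 0.50 (SD, n = 2) at 4 weeks and -4.52 ± 0.0036 (SD, n = 2) at 8 weeks.

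miR-182 followed another course. Its centred log2 values were -1.31 and -1.84 in untreated livers, then -1.25 and -0.47 (1 week), -2.16 and -2.17 (4 weeks), and -1.94 and -1.99 (8 weeks). The 1 week cards lay above both untreated cards, the nearest of them narrowly (-1.25 against -1.31), and the 4 and 8 week cards lay below both. Group means were -1.58 ± 0.37 (SD, n = 2), -0.86 ± 0.55 (SD, n = 2), -2.16 ± 0.0070 (SD, n = 2) and -1.96 ± 0.039 (SD, n = 2) in the same order. From the highest mean to the lowest, the groups ran 4 weeks, 8 weeks, untreated, 1 week for miR-183, and in exactly the reverse order for miR-182. For both members, no neighbours in that order differed past the threshold. The order held under this centring but not under every scaling. With geometric-mean and quantile scaling miR-183 was higher at 8 than at 4 weeks, by 0.041 and 0.023. When cards were scaled to control RNAs, miR-182 was lowest in untreated livers.

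**Figure D2:**
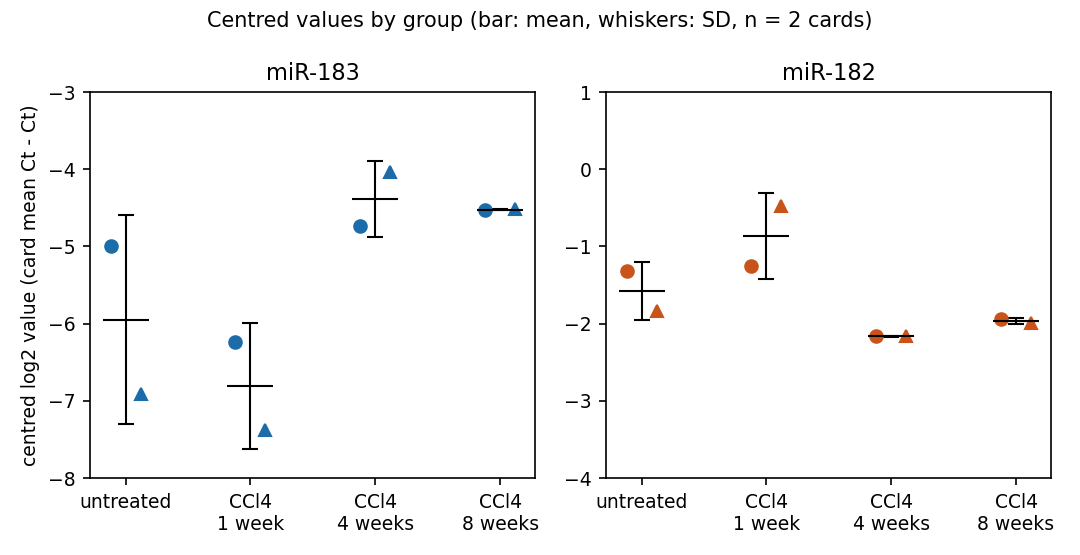
Centred log2 value (card mean Ct minus Ct) of miR-183 and miR-182 on each card by group, circles for replicate 1 and triangles for replicate 2, with the group mean as a bar and the SD as whiskers (n = 2 cards). Both panels span the same number of log2 units; miR-183 has its lowest mean, -6.81, at 1 week, where miR-182 has its highest, -0.86.

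On a linear scale, relative to the untreated mean, miR-183 was 0.485 ± 0.260 (SD, n = 2) at 1 week, 2.48 ± 0.835 (SD, n = 2) at 4 weeks and 2.19 ± 0.0054 (SD, n = 2) at 8 weeks, with an SD of 0.821 among the untreated cards themselves. The same ratios for miR-182 were 1.67 ± 0.625 (SD, n = 2), 0.656 ± 0.0032 (SD, n = 2) and 0.752 ± 0.0203 (SD, n = 2), with an untreated SD of 0.254. The untreated spread of miR-183 was therefore wide on this scale, and that of miR-182 was narrower.

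Neither miR-183 nor miR-182 passed the threshold against untreated livers at any time (limma moderated test, Benjamini-Hochberg adjusted p of 0.05 over the 166 assays). miR-96 was not among the assays tested. At 1 week, when 32.5% of the assays tested were called, miR-183 differed by -0.86 on the log2 scale (SE 0.66, 95% confidence interval -2.39 to 0.67, adjusted p = 0.318). miR-182 differed by 0.71 at that time (SE 0.35, interval -0.11 to 1.53, adjusted p = 0.160). At 4 weeks, with 30.1% of assays called, the difference was 1.57 for miR-183 (interval 0.03 to 3.10, adjusted p = 0.107) and -0.58 for miR-182 (interval -1.41 to 0.24, adjusted p = 0.240). At 8 weeks, with 3.01% called, it was 1.43 for miR-183 (interval -0.10 to 2.96, adjusted p = 0.207) and -0.39 for miR-182 (interval -1.21 to 0.43, adjusted p = 0.460). The intervals leave room for changes of more than 1 log2 unit, so these misses do not show equal levels. Cards of the groups failed to overlap for 1 of the 2 members at 1 week and for both at 4 and 8 weeks, against a background of 76.5%, 68.1% and 60.8% of all assays tested, so separation of this kind was common on these cards. Without untreated replicate 1, the difference of miR-183 at 1 week turned to 0.099 (adjusted p = 0.924, range over all alternatives 0.0658 to 0.924), and at 4 weeks it was 2.52 with an adjusted p of 0.0345 (range 0.0345 to 0.526). Without untreated replicate 2 the same differences were -1.81 at 1 week (adjusted p = 0.0658) and 0.61 at 4 weeks (adjusted p = 0.526). Leaving out untreated replicate 1 or untreated replicate 2 changed the 8 week difference of miR-183 to 2.38 or 0.47 and that of miR-182 to -0.13 or -0.65, none of them called. For miR-182 the 4 week difference became -0.32 or -0.85 without the same cards, and the 1 week difference ran from 0.32 without 1 week replicate 2 to 1.10 without 1 week replicate 1, again with no call. Scaling moved miR-182 as well: its 1 week difference was 0.37 with the geometric mean of a card's determined wells, 0.44 with quantile normalization and 0.47 with control RNAs (adjusted p = 0.610, 0.215 and 0.441, range over all alternatives 0.102 to 0.610), and with control RNAs its 4 and 8 week differences turned to 0.058 and 0.073 (adjusted p = 0.923 and 0.940, the highest of their ranges from 0.0493 and 0.230). At 8 weeks quantile normalization gave -0.61 for miR-182.

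The calls among the members came from comparisons between the times. From 1 to 4 weeks miR-183 rose by 2.42 on the log2 scale, 5.36-fold (SE 0.66, interval 0.89 to 3.96, limma adjusted p = 0.0218). Its Ct on the 1 week cards was 35 and 35.98, so this fold rests on a baseline with no card below a Ct of 35. Over the same span miR-182 fell by 1.30 on the log2 scale, to 0.407 of its 1 week level (SE 0.35, interval -2.12 to -0.48, limma adjusted p = 0.0218). In this comparison 47% of all 166 assays were called, and 74.7% had cards that did not overlap, as both members did. The change in miR-183 was exceeded in size by 23 of the 166 assays and that in miR-182 by 66. The call for miR-183 was lost without 1 week replicate 2 (1.85, adjusted p = 0.123) or 4 weeks replicate 2 (2.07, adjusted p = 0.0986), within a range of 0.0042 to 0.123 over all alternatives, and that for miR-182 without 1 week replicate 2 (-0.91, adjusted p = 0.139), 4 weeks replicate 1 (-1.30, adjusted p = 0.0603) or 4 weeks replicate 2 (-1.29, adjusted p = 0.0835). When cards were scaled to the control RNAs U6, snoRNA135 and snoRNA202, miR-182 differed by -0.415 (adjusted p = 0.466, range 0.0115 to 0.466) and miR-183 by 3.31 (adjusted p = 0.0048).

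Relative to the median of all assays tested, the change from 1 to 4 weeks was 2.45 for miR-183 and -1.27 for miR-182. Those relative values are the same under each scaling that adds a constant to a card, the control RNA scaling included. The median itself lay at -0.03 under the card mean and at 0.85 under the control RNAs. Among those controls, U6 differed by -3.88 between 4 and 1 weeks (adjusted p = 0.0022), snoRNA202 by 1.00 (adjusted p = 0.0311) and snoRNA135 by 0.24 (adjusted p = 0.529), so the 3 did not move together.

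From 1 to 8 weeks miR-183 rose by 2.29 on the log2 scale, 4.88-fold (interval 0.75 to 3.82, limma adjusted p = 0.0414). This fold rests on the same 1 week cards, on which miR-183 had no Ct below 35. miR-182 differed by -1.10 (interval -1.92 to -0.28), which missed the threshold at a limma adjusted p of 0.0561 and ran from -1.49 without 1 week replicate 1 to -0.71 without 1 week replicate 2. It was -0.79 with the geometric mean of a card's determined wells and -0.40 with control RNAs (adjusted p = 0.293 and 0.497, range over all alternatives 0.0309 to 0.497). Here 24.1% of assays were called and 71.7% did not overlap, and both members were among the latter. The call for miR-183 was lost when any single card of either group was left out: 1 week replicate 1 (2.86, adjusted p = 0.0736), 1 week replicate 2 (1.71, adjusted p = 0.210), 8 weeks replicate 1 (2.29, adjusted p = 0.0838) or 8 weeks replicate 2 (2.28, adjusted p = 0.161), in a range of 0.0057 to 0.210 over all alternatives. Between 8 and 4 weeks neither member was called, with differences of -0.14 for miR-183 (interval -1.67 to 1.39, adjusted p = 0.902) and 0.20 for miR-182 (interval -0.62 to 1.02, adjusted p = 0.784). Of all assays, 1.2% were called between those times and 47% did not overlap, a group that held miR-182 and not miR-183. The value of miR-183 turned to 0.21 without 4 weeks replicate 2 and to 0.041 and 0.023 with geometric-mean and quantile scaling. The comparisons with 1 week share the 1 week cards, so they are not independent of each other.

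**Figure D3:**
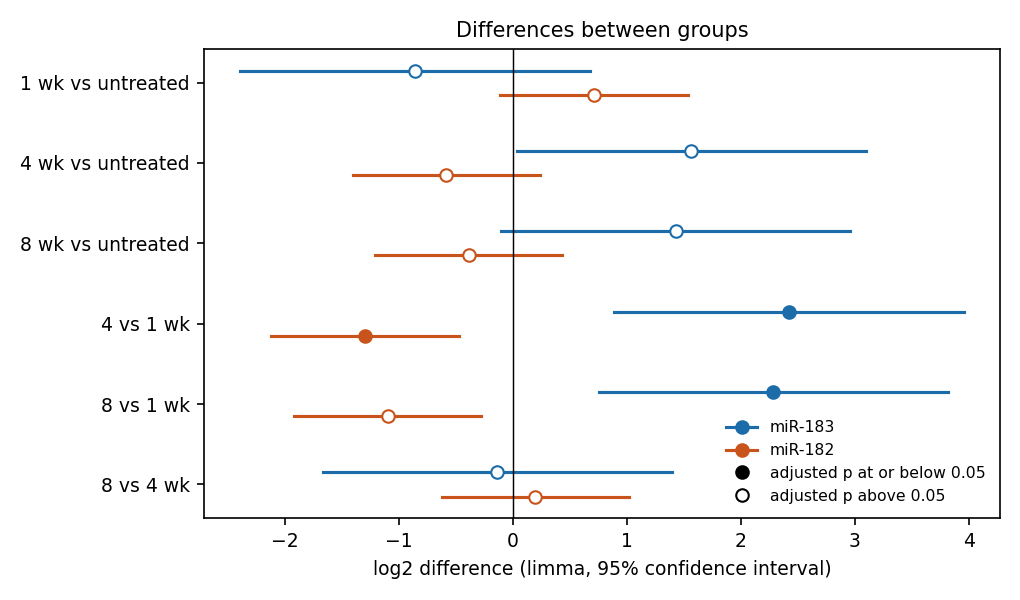
Difference between groups in log2 units (horizontal axis) for miR-183 and miR-182 in the 6 comparisons, with 95% confidence intervals from limma; filled points have an adjusted p at or below 0.05. The filled points are miR-183 at 4 and 8 weeks against 1 week, 2.42 and 2.29, and miR-182 at 4 weeks against 1 week, -1.30.

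For any difference among the 4 groups, untreated included, limma's F test gave an adjusted p of 0.0405 for miR-183 (F = 6.32). For miR-182 it gave 0.0524 (F = 5.29), and it called 54.2% of all assays. Pooled over the times, neither miR-183 nor miR-182 passed the exact test. The mean of the 6 CCl4 cards differed from the 2 untreated cards by 0.71 on the log2 scale for miR-183 (exact two-sided permutation test over 28 splits, p = 0.643) and by -0.09 for miR-182 (exact p = 0.821), where the smallest p the design allows is 0.0357. miR-183 turned to -0.25 without untreated replicate 2, and miR-182 turned to 0.18 without untreated replicate 1 and to 0.012 or 0.014 without replicate 1 or 2 at 4 weeks, and to 0.20 with control RNAs. Adjusted over the 3 members, miR-96 included although its 3 determined cards allow no pass, both exact p became 0.821.

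The distance between miR-183 and miR-182 on a card needs no normalization, because both were read from the same RNA and any card-wide shift cancels. The Ct of miR-183 minus that of miR-182 was 3.68 and 5.07 cycles in untreated livers, then 4.98 and 6.91 (1 week), 2.58 and 1.87 (4 weeks), and 2.59 and 2.53 (8 weeks). All 4 cards at 4 and 8 weeks lay below the other 4. How many other pairs of assays separate in this way was not counted. Among single assays, 68.1% and 60.8% did not overlap untreated at 4 and 8 weeks, and 74.7% and 71.7% did not overlap 1 week. The means were 4.38 ± 0.983 (SD, n = 2), 5.95 ± 1.36 (SD, n = 2), 2.23 ± 0.502 (SD, n = 2) and 2.56 ± 0.0424 cycles (SD, n = 2). The distance at 4 weeks differed from that at 1 week by -3.72 cycles, with an SE of 0.878 from the spread within groups. The 1 week distances rest on Ct values of 35 and 35.98 for miR-183, neither of them below 35. An exact permutation test of the F statistic over the 105 arrangements of the cards in 4 pairs, chosen after these values had been seen, gave p = 0.0476 (F = 7.74, smallest possible p 0.0095). Leaving out 1 week replicate 1 or 1 week replicate 2 changed the 4 against 1 week difference from -3.72 to -4.69 or -2.76 cycles. The size of the distance depends on assay efficiency and is no ratio of levels; its change is what was compared.

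**Figure D4:**
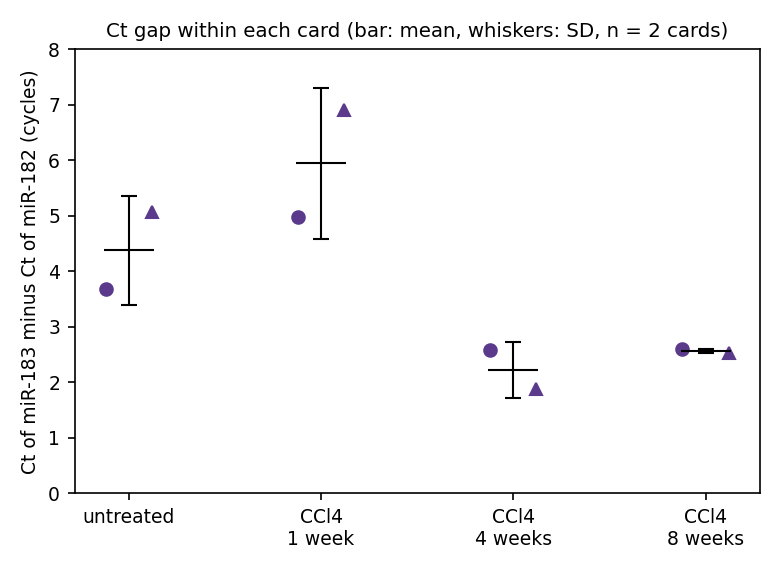
Ct of miR-183 minus Ct of miR-182 in cycles (vertical axis) on each card by group, circles for replicate 1 and triangles for replicate 2, with the group mean as a bar and the SD as whiskers (n = 2 cards). The means are 4.38 cycles in untreated livers and 5.95, 2.23 and 2.56 at 1, 4 and 8 weeks.

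The distance was also compared between any CCl4 and untreated livers. For miR-183 minus miR-182 the treated cards lay -0.80 cycles from the untreated (exact two-sided permutation test, 6 against 2 cards, p = 0.679), and this became -1.49 without untreated replicate 1, -0.10 without untreated replicate 2, -1.47 without 1 week replicate 2 and -0.46 without 4 weeks replicate 2. The pairs with miR-96 rest on 1 treated and 2 untreated cards, on which no test can pass, and are given as values. miR-96 came 5.99 and 6.13 cycles after miR-182 in untreated livers and 4.06 cycles after it on 4 weeks replicate 1. The Ct of miR-183 minus that of miR-96 was -2.31 and -1.06 cycles in untreated livers and -1.48 on that card. Adjusted over the 3 pairs, the exact p for miR-183 minus miR-182 was 1.0.

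For miR-96 itself the centred log2 values were -7.30 and -7.97 in untreated livers and -6.22 on 4 weeks replicate 1. The difference of 1.42 is that of 1 card against 2 and is given with no test. An undetermined well gives no level, but a card's own mean gives the Ct expected at the untreated level, which rests on 2 cards. That Ct was 36.4 and 36.2 on the 1 week cards, 37.4 on 4 weeks replicate 2, and 35.1 and 36.5 on the 8 week cards. On 4 weeks replicate 2 no assay was determined that late, its highest Ct being 36.96, so its measured range ended before that Ct. On the 1 week cards 2 and 6 assays were determined at or beyond the expected Ct, and on 8 weeks replicate 2 there were 3. On 8 weeks replicate 1 there were 13, up to a Ct of 36.52. On these 4 cards the expected Ct thus lay within the range in which other assays gave a Ct. How many assays at such levels gave no Ct is not known, so a lower level and a missed well cannot be told apart.

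Replicate cards spread further for miR-183 than for most assays. The pooled SD of replicate cards was 0.827 log2 units for miR-183, with a smaller SD in 155 of the 166 assays tested, and 0.333 for miR-182, with a smaller SD in 66. The median over all 166 was 0.390. Late assays varied more as a class, with a median SD of 0.514 among the 17 assays with a mean Ct of 33 or above and 0.373 among the other 149. Centred values of miR-183 and miR-182 had a Pearson r of 0.22 and -0.04 with the card mean Ct over the 8 cards.

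**Figure D5:**
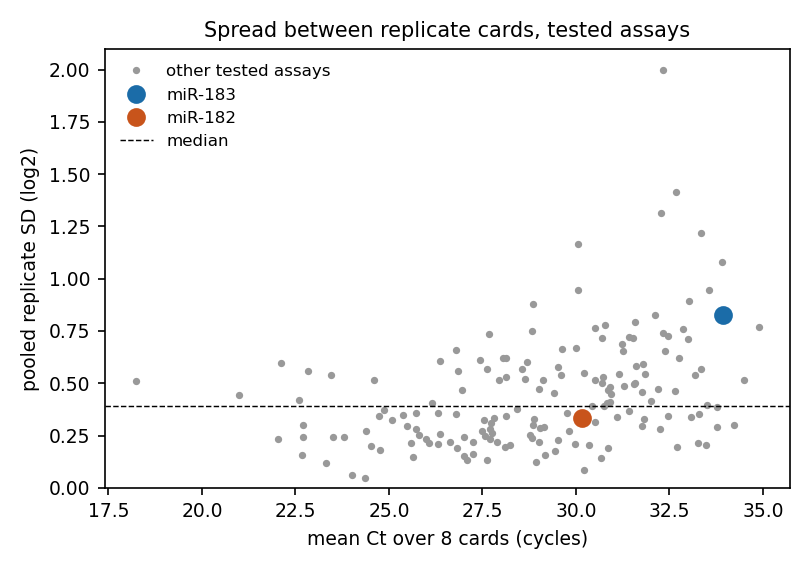
Pooled replicate SD in log2 units (vertical axis) against mean Ct over 8 cards (horizontal axis) for the 166 assays tested, with miR-183 and miR-182 in colour and the median as a dashed line. miR-183, at a mean Ct of 33.9, has an SD of 0.827, above the median of 0.390, and miR-182, at 30.2, has 0.333.

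As a description over the 8 cards, which share group and centring, the centred values of miR-183 and miR-182 had a Pearson r of -0.75, which placed miR-182 at rank 146 of the 165 other assays by their r with miR-183. The 5 assays most like miR-183 were miR-197 (r = 0.89), let-7c (0.88), let-7i (0.88), miR-328 (0.87) and Y1 (0.86), the last a small noncoding RNA on the card as a control. miR-197 also had its lowest value, -7.42, on 1 week replicate 2 and its highest, -2.78, on 4 weeks replicate 2, the cards where miR-183 had its own. The 5 most like miR-182 were miR-337-3p (r = 0.89), miR-31 (0.86), miR-24 (0.83), miR-191 (0.83) and U6 (0.82). miR-337-3p was higher on 1 week replicate 2, at -4.43, than on any other card, as was miR-182. The first partner of each member was itself a late assay, with mean Ct values of 33.3 for miR-197 and 34.9 for miR-337-3p. The other listed partners came earlier, with mean Ct values of 27.2 to 31.2 for miR-183 and 18.2 to 24.8 for miR-182.

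Markers of cell types that liver RNA can hold moved over the same times, and their part in the members' values was not tested. Their counts against untreated stand beside a background of 32.5%, 30.1% and 3.01% of all assays called at 1, 4 and 8 weeks, or 30, 22 and 4 of 166 called higher and 24, 28 and 1 called lower. That split moved with the scaling: control RNAs gave 22, 45 and 11 higher and 25, 11 and 1 lower, and the geometric mean of a card's determined wells gave 18, 12 and 1 higher and 33, 23 and 0 lower. Between 4 and 1 weeks the card mean gave 36 higher and 42 lower, and control RNAs gave 72 higher and 20 lower. Between 8 and 1 weeks the card mean gave 17 higher and 23 lower, and control RNAs gave 46 higher and 10 lower. The lists were counted under the card mean only. In the biliary and other epithelial list 5 of 7 miRNAs were tested. No epithelial marker was called at 1 or 8 weeks against untreated and 1 was lower at 4 weeks, with medians of 0.28, -1.02 and -1.04 at 1, 4 and 8 weeks against -0.09, 0.03 and -0.04 over all assays. Between 4 and 1 weeks, where 47% of all assays were called in either direction, 3 of these 5 fell, the largest change being that of miR-203 (-2.77, limma adjusted p = 0.0010). Between 8 and 1 weeks, where 24.1% of all assays were called, miR-203 was the only member of the 5 to be called (-1.45, limma adjusted p = 0.0144); miR-429 differed by more, -1.86, with an adjusted p of 0.0561. Of the 5 hepatocyte markers, 1, 4 and 1 were lower at 1, 4 and 8 weeks and none was higher (medians -0.79, -2.49 and -1.18). miR-122 was not among those called and differed by -1.20, -0.23 and 0.09 (limma adjusted p = 0.0949, 0.740 and 0.921). Between 4 and 1 weeks 3 of the hepatocyte markers fell, while miR-122 differed by 0.97 (limma adjusted p = 0.131).

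Against the same background shares, 4 of 5 leukocyte markers rose at 1 week and 4 at 4 weeks, while none passed at 8 weeks (medians 1.63, 1.60 and 0.82), and miR-223, a myeloid miRNA, stood highest, at 2.06, 2.77 and 1.22. Between 4 and 1 weeks, with 47% of all assays called, 1 leukocyte marker rose and 1 fell. Of the 4 mesenchymal markers tested from a list of 5, 2 rose at 4 weeks and none passed at 1 or 8 weeks (medians 0.15, 0.71 and 0.27). Both endothelial markers, the strands of miR-126, fell at 4 weeks and between 4 and 1 weeks. Neither erythroid marker was called against untreated, and 1 rose between 4 and 1 weeks. Between 8 and 1 weeks, the comparison in which miR-183 was also called, 24.1% of all assays were called. Of the 2 erythroid markers, miR-451 rose by 1.60 (limma adjusted p = 0.0320), while miR-486 differed by -0.14 (limma adjusted p = 0.701). In the same comparison the endothelial miR-126-3p differed by -1.56 (limma adjusted p = 0.0332), while no hepatocyte or mesenchymal marker was called. Of the 5 leukocyte markers, whose median was -0.83, only the lymphoid miR-150 was called (-1.94, limma adjusted p = 0.0087). miR-142-3p alone of that list was higher, by 1.02, and missed the threshold (limma adjusted p = 0.0561). In a list from neural and retinal cells, where the cluster is abundant, only miR-184 of 5 was tested, and it rose at all 3 times, by 2.82, 1.90 and 2.19. Of the other 4 in that list, miR-124 and miR-204 gave a Ct on 1 card each, miR-9 on 3 and miR-211 on 6.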

How the data were processed

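Whole-liver RNA was reverse transcribed with Megaplex rodent primers and run without pre-amplification on TaqMan rodent miRNA A cards. The authors deposited raw Ct values, unnormalized, with empty cells for wells without a Ct, and a table of fold changes (ratios to untreated, after geometric-mean normalization; the submitters' processing notes name DataAssist), which was not used. All 8 Ct columns matched a label. Cards were centred on the mean Ct of the 149 assays below 35 on every card, a set that holds miR-182. limma 3.58.1 in R 4.3.3 fitted 166 assays with 4 group means (prior degrees of freedom 3.47; Benjamini-Hochberg within a comparison, 0.05); the study names the REST software for its qPCR comparisons, which was not used here. Exact permutations and plots used Python 3.11.15 and matplotlib 3.10.9. The fit was tested on simulated data, with no outcome of that test given here. The members and lists were chosen with earlier results of these data known. Text names the 3 members, the 5 assays most correlated with each of those determined on at least 6 cards, and the control RNAs. List members are given by count, with the most changed named. miR-122, miR-124, miR-204, miR-9, miR-211, miR-203, miR-223, miR-451, miR-486, miR-126-3p, miR-142-3p and miR-150 belong to those lists, some named after their values were seen. Alternatives covered centring, Ct limits, undetermined wells, blocking, groups fitted and single cards. The number of cards limits precision.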

Additional observations from a re-analysis of the deposited data

Results flagged for a closer look

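Among the comparisons between time points, 3 member values in 2 comparisons passed the test of the difference (limma, adjusted p 0.05). miR-182 was lower at 4 than at 1 week, by -1.30 on the log2 scale. miR-183 was higher at 4 than at 1 week, by 2.42, and higher at 8 than at 1 week, by 2.29. These traits were common on the cards: 47% of all assays tested were called at 4 against 1 week and 24.1% at 8 against 1. Not counting the alternative chosen after seeing the data, the call of miR-182 held in 12 of 18 alternatives. That of miR-183 held in 13 of 17 at 4 against 1 week and in 10 of 17 at 8 against 1.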

How the results depend on the processing

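Where a value changed, the cause was not tested. For miR-182 at 4 against 1 week, the call was lost with geometric-mean centring over a card's determined wells (-1.16, adjusted p = 0.0903), control RNA scaling (-0.415) and undetermined wells at Ct 40 (-1.30, adjusted p = 0.0564). miR-183 at 4 against 1 week lost it with quantile normalization (2.30, adjusted p = 0.0686) and Ct 40 (2.42, adjusted p = 0.0649). At 8 against 1 week miR-183 lost it with quantile normalization (2.32), missing values kept (2.29) and Ct 40 (2.29). miR-182 gained it there with quantile normalization (-1.05, adjusted p = 0.0379) and a mean Ct below 32 (-1.10, adjusted p = 0.0421). Over all alternatives the adjusted p ran from 0.0115 to 0.466, 0.0042 to 0.123, 0.0057 to 0.210 and 0.0309 to 0.497 for these. At 4 weeks against untreated, quantile normalization called miR-182 (-0.83, adjusted p = 0.0493, range 0.0493 to 0.923) and control RNA scaling called miR-183 (2.21, adjusted p = 0.0346). Control RNA scaling turned miR-182 to 0.058 and 0.073 at 4 and 8 weeks against untreated and to 0.20 for any CCl4. miR-183 at 8 against 4 weeks turned to 0.041 with the geometric mean and 0.023 with quantile normalization. At Ct 40, any CCl4 became -2.82 for miR-96, 2.73 for the Ct of miR-96 minus miR-182 and -3.53 for miR-183 minus miR-96. With a Ct of 35 or above undetected, miR-96 was on 1 card, miR-183 on 6 and miR-182 on 8. Neither 1 week card then held miR-183, so both of its calls against 1 week lack a detected baseline card under that limit. limma gave no value for miR-96, nor for miR-183 with a mean Ct below 32.

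Where leaving out single cards changed a direction or call, miR-183 ran from -1.81 to 0.099 and 0.61 to 2.52 at 1 and 4 weeks against untreated, 1.85 to 3.00 at 4 against 1, 1.71 to 2.86 at 8 against 1, -0.49 to 0.21 at 8 against 4 weeks and -0.25 to 1.67 for any CCl4. miR-182 ran from -1.69 to -0.91 at 4 against 1 week and -0.35 to 0.18 for any CCl4, and the Ct of miR-183 minus miR-96 from -0.42 to 0.83. Replicate numbers did not pair the cards: correlations of same-numbered deviations over 166 assays ran from -0.50 to 0.43. With the replicate block, adjusted p was 0.0337 for miR-182 and 0.0228 for miR-183 at 4 against 1 week and 0.0423 for miR-183 at 8 against 1, so no member's call changed. With the untreated numbers crossed, chosen after seeing the data, more assays were called in every comparison. The calls were 17 at 8 weeks against untreated, 64 at 8 against 1 and 11 at 8 against 4 weeks, miR-182 (-1.10) among the 64.

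Of 166 assays, 54, 50 and 5 were called at 1, 4 and 8 weeks against untreated, and 78, 40 and 2 at 4 against 1, 8 against 1 and 8 against 4. Ct 40 (209 assays tested) gave 2 at 8 weeks, 42 at 4 against 1 and 13 at 8 against 1. Quantile normalization gave 20 at 8 against 1 and 9 at 8 against 4. For 8 weeks against untreated, control RNAs gave 12, the geometric mean 1 and a mean Ct below 32 (133 tested) 3. For 8 against 4 weeks, control RNAs, the geometric mean and the median each gave 1. With limma on only the groups compared, 8 weeks against untreated and 8 against 4 gave 0, with 32 and 18 assays at an unadjusted p under 0.05. At 8 against 4, missing values kept (198 tested), Ct 40 and the block gave 0, with 27, 25 and 25. Without single cards they ran from 15 to 59, 22 to 51 and 0 to 6 against untreated, and 30 to 75, 4 to 49 and 0 to 1 between times.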
